A study of Rattus norvegicus with 9 samples.

Results

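Synovium of Lewis rats in the TZG group was compared with synovium in the AIA group, in 3 libraries of each, which are 6 of the 9 libraries of the series. The series title names rheumatoid arthritis and Tianhe Zhuifeng liquid extract, so TZG was read as the extract group, AIA as the arthritis model and NC as the normal control. The labels do not spell out these abbreviations. They give no dose, route, time, age or sex, and do not say whether the TZG rats also had arthritis. All 3 groups share strain and tissue. Libraries were assigned by the letter of their column in the deposited count table: G30, G31 and G48 to TZG, M2, M6 and M8 to AIA, and C56, C59 and C61 to NC. Of the 6 libraries compared, G30 and M6 carry a number that is also a sample title, and 4 were placed by letter alone. Nothing in the labels says that each library is a separate rat, so a p-value here reflects only how much these libraries vary, and that variation may be technical.

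The synovium lines the joint capsule. Its lining fibroblasts secrete the lubricant of the joint fluid, and beneath them lie sublining fibroblasts, blood vessels, nerves, macrophages and fat. In inflamed joints the lining thickens, leukocytes enter, and fibroblasts release cytokines, chemokines and enzymes that degrade matrix. It attaches to bone beside the rim of the joint cartilage.

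Levels below are CPM, a gene's reads scaled to a fixed library total, adjusted by TMM factors, which correct library totals for composition. Where 3 values follow each other they stand in the order G30, G31, G48 for TZG, M2, M6, M8 for AIA and C56, C59, C61 for NC. Totals were 13765527 to 16402126 reads in TZG and 13471552 to 14335920 in AIA, and a gene without a read may have had up to 3 reads, which is 0.183 to 0.223 CPM per library (counting error only). Mitochondrial transcripts took 5.79% to 6.63% of reads in TZG, 5.93% to 8.52% in AIA and 6.28% to 14.3% in NC, with C61 highest.

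Markers of synovium were present in all 6 libraries. The lubricant Prg4, made by lining fibroblasts, stood at 3525, 2568 and 1197 CPM in TZG, against 6927, 2773 and 3445 CPM in AIA (log2 fold change -0.85 ± 0.66 SE, edgeR adjusted p = 0.6). G48 held the lowest value, and the groups overlapped. The other lining markers Clic5, Htra1 and Cd55 had log2 fold changes of -0.87, 0.37 and 0.18, and all 3 overlapped between the groups. Among sublining fibroblast markers, Thy1 stood at 74.4, 71.6 and 192 CPM in TZG, against 50.6, 77.8 and 46.4 CPM in AIA, with G48 alone above the AIA range. Pdgfra and Pi16 had log2 fold changes of 0.44 and -0.34. Over 22 tested genes of the synovial fibroblast list, 12 were higher in TZG and the median log2 fold change was 0.09, or -0.18 without G48.

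G48 carried cartilage and bone transcripts far above every other library of the comparison. Col2a1, the fibrillar collagen of cartilage, stood at 358, 1.04 and 5414 CPM in TZG, against 0.22, 7.33 and 91.7 CPM in AIA. G48 was the highest, and G30 was above M8. Summed over the 26 genes of the cartilage list the level was 1021, 429 and 10062 CPM in TZG, against 673, 579 and 555 CPM in AIA. Ibsp, a sialoprotein of mineralised bone, stood at 44.5, 0.554 and 673 CPM in TZG, against 0, 0.271 and 13 CPM in AIA, and again G48, G30 and M8 were the 3 libraries that stood out. The 20 bone genes, which include the type I collagens that fibroblasts also make, summed to 21519.6, 21208 and 68605 CPM in TZG, against 12802, 20966 and 10772 CPM in AIA. The 18 genes of osteoclasts, the cells that resorb bone, summed to 771, 549 and 3321 CPM in TZG, against 544, 617 and 900.5 CPM in AIA. Ctsk, the collagen-cleaving protease of osteoclasts, stood at 159, 68.1 and 1046 CPM in TZG, against 100.3, 121 and 111 CPM in AIA. A cartilage and bone score, the mean log2 CPM of 42 genes of both lists, was 3.99, 2.01 and 6.84 in TZG, against 1.97, 2.12 and 3.50 in AIA.

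Fat and blood also varied between libraries. The 27 adipocyte genes summed to 22283, 18674 and 6071 CPM in TZG, against 26219.5, 28229 and 37852 CPM in AIA, with G48 lowest. The 20 erythroid genes summed to 4087, 2902 and 1661 CPM in TZG, against 3203, 3030.0 and 19939.5 CPM in AIA, with M8 highest. The 23 neutrophil genes summed to 1612, 892 and 4752 CPM in TZG, against 697, 1042 and 4219.8 CPM in AIA, with G48 and M8 both high. In bulk tissue, fewer cells of a type and less RNA per cell cannot be told apart.

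**Figure D1:**
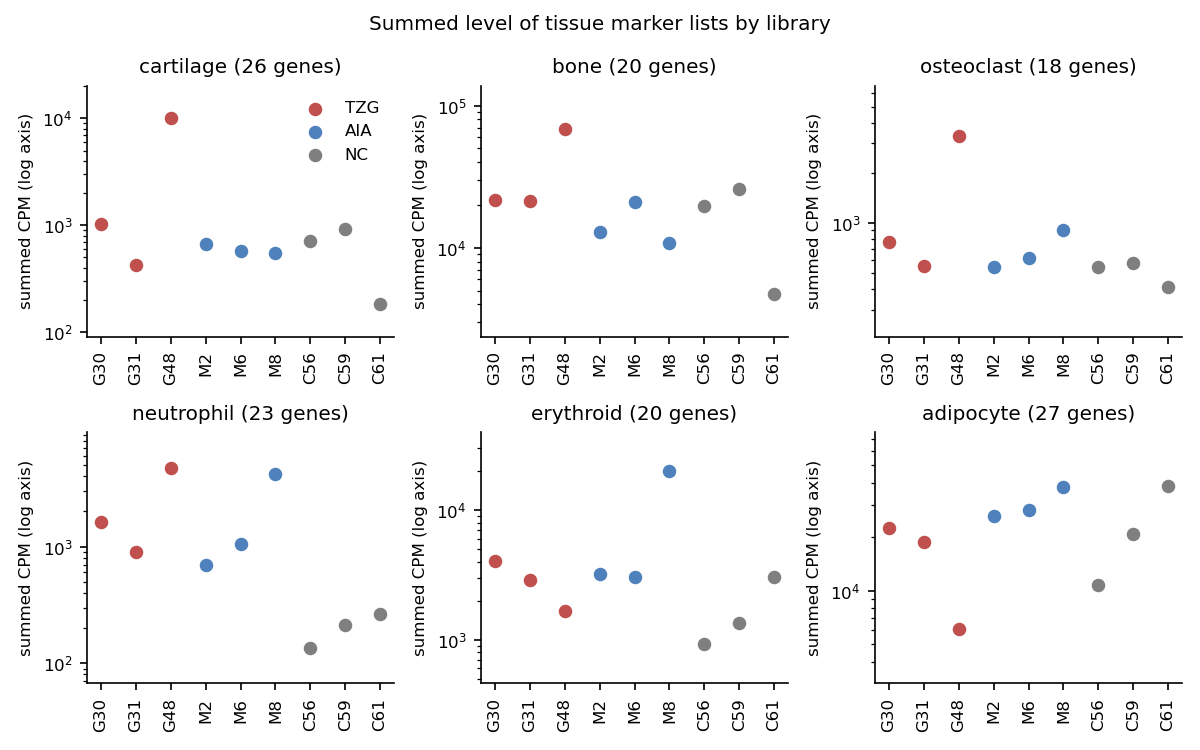
Summed level in CPM, on a log axis, of 6 marker lists in each of the 9 libraries, with 1 point per library coloured by group (TZG, AIA, NC). G48 is the highest point of all 9 in the cartilage, bone and osteoclast panels, at 10062, 68605 and 3321 CPM, and the lowest in the adipocyte panel, at 6071 CPM, while M8 is the highest in the erythroid panel, at 19939 CPM.

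No gene passed the main test of TZG against AIA. In edgeR's quasi-likelihood test 15068 genes were tested, and 0 were higher and 0 lower at an adjusted p under 0.05 (0% of genes in either direction). At an unadjusted p under 0.05 there were 934 higher and 960 lower genes, and the smallest adjusted p was 0.26. The NC libraries entered this fit for its spread. One of them, C61, had skeletal muscle genes summing to 34150 CPM, against at most 83.6 CPM in TZG and AIA. Without C61, 2509 genes had an unadjusted p under 0.05, against 1894 with it. The smallest adjusted p was then 0.17, and again 0 genes passed. The verbs below therefore describe levels in these libraries. Limma-voom also gave 0 higher and 0 lower genes, with 1932 at an unadjusted p under 0.05. DESeq2, on the same genes and counts, gave 149 higher (0.989% of genes) and 151 lower (1%). The authors' deposited table lists 81 genes as higher (0.407%) and 34 as lower (0.171%) at a q-value under 0.05, of 19904 genes with a q-value. Without G48, edgeR tested 15279 genes and again gave 0 higher and 0 lower, with 1664 at an unadjusted p under 0.05 and a smallest adjusted p of 0.28. DESeq2 without G48, a fit added after the data were seen, gave 197 higher and 105 lower genes. Of these, 81 higher and 76 lower genes were called with all libraries too, which is 54.4% and 50.3% of the calls with all libraries and 41.1% and 72.4% of those without G48.

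By a measure based on group means, fold changes of 2 or more among higher genes rested on G48 far more often than on any other library. With all libraries 479 genes (3.18%) were at least 2-fold higher in TZG and 459 (3.05%) at least 2-fold lower. Without G48 the log2 fold change of 205 of the 479 higher genes was under 0.5 times its size or had the other sign, and 3 of the 479 could not be compared because they were not tested in that fit. Of the 459 lower genes it held for 3. Leaving out M8 did the same to 2 higher and 63 lower genes. Each of the other 4 libraries did it to at most 12 higher and 7 lower genes. Leaving out a low library raises a group mean only a little, while leaving out a high one can lower it by any amount. Few lower genes could therefore count for a TZG library, and the 2 directions cannot be compared by this measure. G48 was the highest of the TZG and AIA libraries for 344 of the 479 higher genes and the lowest for 274 of the 459 lower genes. A 2-fold difference both with and without G48 was seen in 221 higher and 285 lower genes, and additionally without M8 and G48 together in 174 and 155. G48 stood at least 4 times above every other TZG and AIA library for 114 genes, against 42 genes for M8 and at most 2 for each of the other 4. It stood at least 4 times below all of them for 113 genes, against 24 to 70 genes for the other libraries. Of the 81 genes higher in the authors' deposited table, 73 were tested here, and 12 of these kept under 0.5 of their log2 fold change without G48. Of the 34 lower genes 0 did, and few could by this measure. G48 was the lowest of the TZG and AIA libraries for 18 of those 34.

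**Figure D2:**
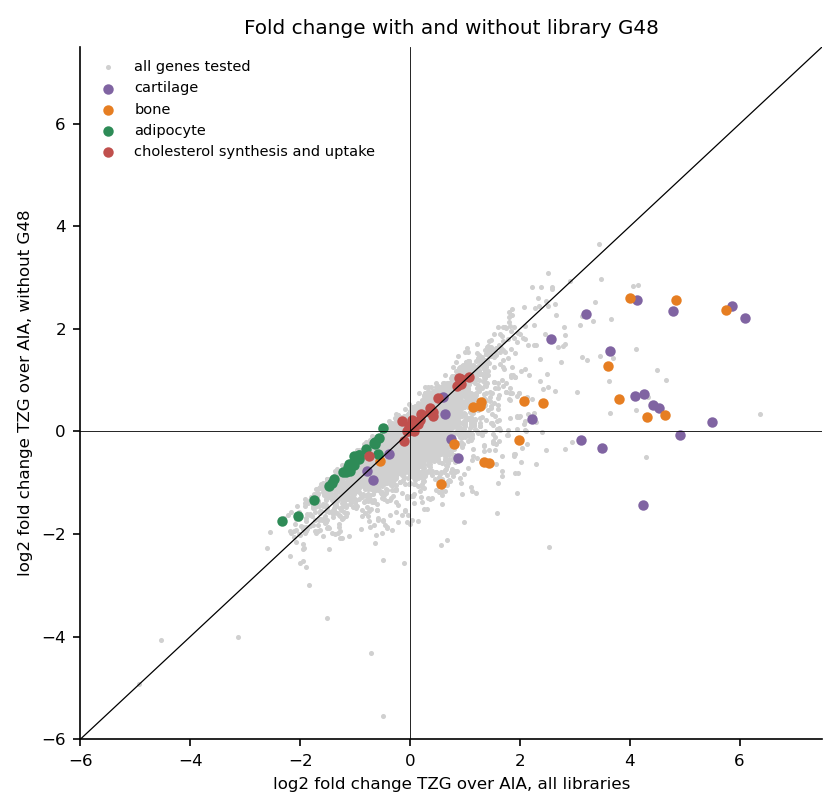
Each point is a gene tested in both fits, with its log2 fold change of TZG over AIA from all libraries on the x axis and without G48 on the y axis; coloured points are genes of 4 lists, and the diagonal marks equal values. Most cartilage and bone genes lie far below the diagonal, with list medians of 3.56 and 2.03 with all libraries and 0.40 and 0.49 without G48, while the cholesterol genes lie along it, with medians of 0.36 and 0.33.

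The 5 genes for which G48 exceeded the other TZG and AIA libraries by the highest ratio belong to cartilage and bone. Panx3, a pannexin channel of chondrocytes and osteoblasts, stood at 0.933, 0 and 93.1 CPM in TZG, against 0.147, 0 and 0.965 CPM in AIA. Sp7, the transcription factor of osteoblasts, stood at 0.666, 0.208 and 26 CPM in TZG, against 0.366, 0.204 and 0.482 CPM in AIA. The cartilage genes Col9a1 and Cnmd, a collagen chain and the matrix protein chondromodulin, reached 123 and 32.2 CPM in G48 and at most 2.07 and 0.88 CPM in the other TZG and AIA libraries. Grem1, a secreted antagonist of bone morphogenetic proteins, reached 72.1 CPM in G48 and at most 1.47 CPM in the other 5. These levels lie in 1 library, and without it the log2 fold changes of Panx3, Col9a1, Sp7, Grem1 and Cnmd were 0.34, 0.19, 0.33, -0.49 and -1.43.

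Some cartilage and bone genes were also higher in G30 and G31. Acan, the large proteoglycan of cartilage, stood at 64.5, 82.6 and 511 CPM in TZG, against 2.71, 11.9 and 22.7 CPM in AIA, so every TZG library lay above every AIA library (log2 fold change 4.14 ± 1.22 SE, edgeR adjusted p = 0.31; 2.57 without G48). This separation was found in 10.7% of all genes tested. Spp1, the secreted protein osteopontin of bone and macrophages, stood at 134, 228 and 1086 CPM in TZG, against 4.4, 32.1 and 53.3 CPM in AIA (log2 fold change 4.01 ± 1.02 SE, edgeR adjusted p = 0.27; 2.61 without G48). Sox9, the transcription factor of chondrocytes and tendon progenitors, stood at 7.4, 7.27 and 23.1 CPM in TZG, against 1.98, 3.39 and 0.965 CPM in AIA, also without overlap. Over the lists, 21 of 24 tested cartilage genes and 17 of 18 bone genes were higher, where 50.2% of all genes were. Of them 3 and 5 were separated upward, where 10.7% of all genes were, and the cartilage count was near that share. In the cartilage list 1 gene was separated downward. Without G48 the counts of higher genes were 15 and 12, where 46.8% of all genes were higher. Osteoclast genes had 13 of 15 higher and a median of 0.53, or 0.05 without G48. Acp5, the tartrate-resistant phosphatase of osteoclasts, stood at 109, 42.8 and 651 CPM in TZG, against 46.7, 54.6 and 80.1 CPM in AIA, and its log2 fold change was 2.15 with and 0.34 without G48. Tcirg1, a subunit of the proton pump that acidifies bone, stood at 81, 86.3 and 127 CPM in TZG, against 56.4, 73.8 and 78.1 CPM in AIA. Dmp1, a matrix protein of osteocytes, stood at 18.9, 2.15 and 139 CPM in TZG, against 3.37, 2.71 and 7.03 CPM in AIA, with G30 and G48 above every AIA library and G31 below.

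Genes with the smallest p on the higher side were led by Cyp51 (ENSRNOG00000007234), which the deposited table places on chromosome 4 at 27175243 to 27194018, on a build not given in the sources used here. Cyp51 encodes the lanosterol demethylase of cholesterol synthesis and stood at 60.7, 64.1 and 52.9 CPM in TZG, 29.2, 32.5 and 31.4 CPM in AIA and 36.9, 29.4 and 34 CPM in NC (log2 fold change 0.93 ± 0.12 SE, edgeR adjusted p = 0.26). All 3 TZG libraries lay above all AIA and NC libraries, and the log2 fold change without G48 was 1.02. Tdg, a DNA glycosylase that acts in base excision repair and DNA demethylation, stood at 58.9, 60.8 and 70.8 CPM in TZG, 40.5, 42.3 and 43.2 CPM in AIA and 42.1, 43.7 and 40.2 CPM in NC (0.60 ± 0.10 SE on the log2 scale). G48 was the highest library for Tdg and the lowest TZG library for Cyp51. Atp10a, a phospholipid flippase, stood at 30.2, 34.9 and 40.8 CPM in TZG, against 17.7, 22.3 and 18.9 CPM in AIA (0.84 ± 0.15 SE). Trib1, a pseudokinase that guides protein degradation, stood at 38.6, 35.8 and 35.7 CPM in TZG, against 24.5, 20.4 and 15.9 CPM in AIA (0.86 ± 0.16 SE). The actin-binding protein Twf1 stood at 93, 103 and 94.1 CPM in TZG, against 67.2, 69.1 and 60.5 CPM in AIA (0.56 ± 0.11 SE). Each of these, chosen by p on the same counts, was separated between TZG and AIA, where 10.7% of all genes were separated upward. Arsi, a sulfatase, averaged 56.9 ± 7.47 CPM in TZG and 26 ± 6.93 CPM in AIA, and Ppat, which opens purine synthesis, averaged 31.1 ± 3.4 CPM in TZG and 19.2 ± 0.473 CPM in AIA (SD, n = 3 libraries each). The edgeR adjusted p was 0.26 for all 7 genes, and DESeq2 adjusted p-values ran from 1.4e-06 for Cyp51 to 0.0027 for Ppat.

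Without G48, the genes of smallest p on the higher side again included Cyp51, joined by 3 genes of growth metabolism. Srm, which makes the polyamine spermidine, stood at 102, 129 and 67.5 CPM in TZG, against 59.96, 58.5 and 46.7 CPM in AIA (log2 fold change 0.86 with and 1.08 without G48). Pak1ip1, a protein of ribosome assembly, stood at 25.5, 24.2 and 14.6 CPM in TZG, against 13.3, 9.3 and 9.44 CPM in AIA (1 and 1.23). Shmt2, the mitochondrial enzyme that feeds carbon from serine into folate, stood at 71.6, 91 and 49.4 CPM in TZG, against 49.5, 48.9 and 44 CPM in AIA (0.57 and 0.79). For all 3 genes G48 was the lowest TZG library, and for Shmt2 it lay within the AIA range. The edgeR adjusted p without G48 was 0.28 for each.

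On the lower side the smallest p belonged to Akap12 (ENSRNOG00000019549), a scaffold for protein kinase A, on chromosome 1 at 40816107 to 40906581 in the deposited table. Akap12 stood at 55.7, 51.8 and 41.8 CPM in TZG, 116, 90.3 and 93.9 CPM in AIA and 99.5, 104 and 98.4 CPM in NC (log2 fold change -1.01 ± 0.14 SE, edgeR adjusted p = 0.26). Every TZG library lay below every AIA library, which was found in 12.7% of all genes tested. Zbtb16, a transcription factor that glucocorticoids induce, stood at 11.5, 10.9 and 4.98 CPM in TZG, 44.2, 40.9 and 25.7 CPM in AIA and 9.9, 10.5 and 12 CPM in NC (log2 fold change -2.01 ± 0.33 SE, edgeR adjusted p = 0.26). Without G48, its lowest library, the log2 fold change was -1.71, and without G48 and M8 it was -1.91. For Zbtb16 the TZG and NC libraries overlapped, and all AIA libraries lay above both. Utrn, the dystrophin relative utrophin, stood at 335, 291 and 256 CPM in TZG, 565, 510.1 and 566 CPM in AIA and 487, 553 and 577 CPM in NC (-0.89 ± 0.15 SE). Dgkb, a kinase of diacylglycerol, stood at 6.8, 6.5 and 6.2 CPM in TZG, 14.3, 11.1 and 13.2 CPM in AIA and 24.4, 21.1 and 18.8 CPM in NC (-0.99 ± 0.16 SE), and Plcb4, a phospholipase C that produces diacylglycerol, at 57.8, 54.3 and 53.2 CPM in TZG, 86.3, 87.1 and 95.2 CPM in AIA and 99, 86.5 and 113 CPM in NC (-0.70 ± 0.12 SE). For these 3 genes all TZG libraries lay below all AIA and all NC libraries. Pdzd2, a protein with PDZ domains, averaged 34.6 ± 3.38 CPM in TZG and 59.3 ± 8.34 CPM in AIA, and the zinc finger gene Zfp612 averaged 2.19 ± 0.264 CPM in TZG and 5.76 ± 1.16 CPM in AIA. AC134224.2, listed without a gene name, averaged 8 ± 0.126 CPM in TZG and 16.8 ± 2.23 CPM in AIA (SD, n = 3 libraries each). In the fit without G48, the lower genes of smallest p beside Zbtb16 and Akap12 were Cdc42bpg, a kinase bound by CDC42, Egflam, a matrix protein of the basement membrane zone, and Spata13, an exchange factor for small GTPases. Their log2 fold changes were -1.02, -0.98 and -0.67 without G48 and -0.85, -0.79 and -0.43 with it.

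**Figure D3:**
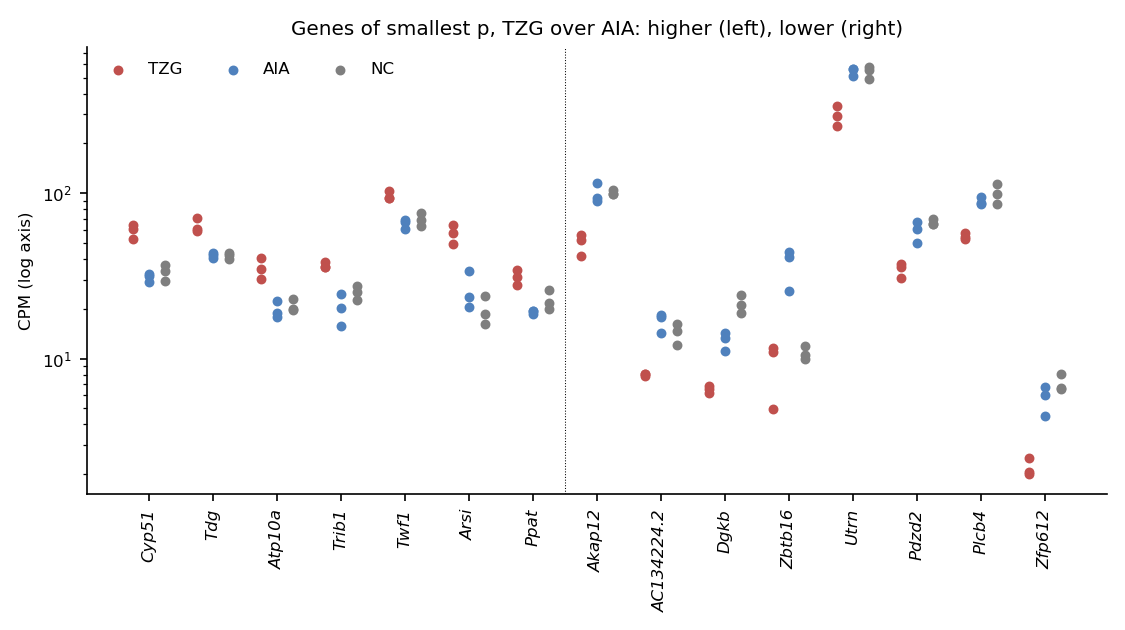
Level in CPM, on a log axis, of the 7 higher and 8 lower genes of smallest p shown in the text, with 1 point per library for TZG, AIA and NC. The TZG points lie wholly above the AIA points for the genes left of the dotted line and wholly below them for the genes on the right, and for Zbtb16 they lie at 4.98 to 11.5 CPM against 25.7 to 44.2 CPM in AIA.

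Genes of cholesterol synthesis and uptake stood higher in TZG, with G48 or without it. Cells make cholesterol from acetyl-CoA through mevalonate, isoprenoids and squalene to lanosterol, which further enzymes turn into cholesterol. The transcription factor SREBP2, encoded by Srebf2, switches on most of these genes when sterols in the membrane run low. Of 25 genes tested, 19 were higher in TZG and 6 lower, where 50.2% of all genes were higher. The median log2 fold change was 0.36, against 0.002 over all genes, and 12 genes were separated upward and 1 downward, where 10.7% and 12.7% of all genes were. Without G48, 23 of 25 were higher, where 46.8% of all genes were, and the median was 0.33. The median stayed between 0.24 and 0.39 with any 1 of the 9 libraries left out. None passed in edgeR, and DESeq2 called 8 higher with all libraries and 7 without G48.

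Promoters of 3 of these genes are shown for the letters that SREBP2 and its partner NF-Y are known to read: Cyp51 because it had the smallest p, and Msmo1 and Srebf2 because they were the 2 found to hold the first motif. They are 300 bases long and were taken from RefSeq for build GRCr8, which may not be the build of the deposited table. The commonest window, in 57.8% of promoters, ran from 250 bases before to 50 bases after the start of the gene. Whether these 3 lie so was not checked. Capitals mark TCACNCCA, a form of the sterol regulatory element, and CCAAT, the box bound by NF-Y, on either strand. The windows lie at chr4:30991443-30991742 for Cyp51, chr16:29746863-29747162 for Msmo1 and chr7:115543057-115543356 for Srebf2, all on the plus strand.
Cyp51: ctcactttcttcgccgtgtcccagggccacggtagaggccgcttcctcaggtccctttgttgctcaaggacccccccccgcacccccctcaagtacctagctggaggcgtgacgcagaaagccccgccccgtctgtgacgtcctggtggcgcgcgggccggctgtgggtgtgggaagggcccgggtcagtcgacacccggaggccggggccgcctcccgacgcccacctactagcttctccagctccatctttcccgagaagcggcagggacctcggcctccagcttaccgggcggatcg
Msmo1: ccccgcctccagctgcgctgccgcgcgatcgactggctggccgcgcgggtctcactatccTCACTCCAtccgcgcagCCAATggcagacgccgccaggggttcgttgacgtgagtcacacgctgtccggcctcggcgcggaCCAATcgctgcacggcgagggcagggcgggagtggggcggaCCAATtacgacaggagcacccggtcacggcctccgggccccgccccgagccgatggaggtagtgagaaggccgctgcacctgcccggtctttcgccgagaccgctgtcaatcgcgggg
Srebf2: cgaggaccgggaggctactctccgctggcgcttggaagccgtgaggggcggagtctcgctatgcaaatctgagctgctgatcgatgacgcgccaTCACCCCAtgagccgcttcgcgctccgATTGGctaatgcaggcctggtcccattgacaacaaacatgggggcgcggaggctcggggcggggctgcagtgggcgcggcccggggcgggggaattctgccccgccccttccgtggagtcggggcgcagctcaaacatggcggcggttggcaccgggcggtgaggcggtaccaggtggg
The Cyp51 window holds neither motif and 1 GGGGCGG box, which Sp1 binds. Msmo1 holds 1 TCACNCCA and 3 CCAAT, and Srebf2 holds 1 of each.

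In all, 9 letter patterns were searched on both strands in the promoters of 18 listed genes that RefSeq's table holds and in all 33469 promoters of the same length. TCACNCCA was in 2 of the 18 (11.1%), against 3.89% of all promoters, and its looser form TCACNCNA, which includes it, in 5 (27.8%), against 9.89%. CCAAT was in 14 (77.8%), against 37.5%, and GGGGCGG in 13 (72.2%), against 20.6%. CACGTG, the E-box, was in 3 (16.7%), against 6.42%. TGACTCA, the AP-1 site, was in 2 (11.1%), against 4.63%. GGGANTTCC, a short NF-kB pattern, was in 1 (5.56%), against 1.64%, and TGACGTCA, the cyclic AMP element, in 0, against 1.83%. The longer consensus of NF-kB was in 0 of the 18, against 0.111%. Apart from TCACNCNA, no pattern is contained in another, and a match only describes the letters of a window.

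In the mevalonate branch, Mvd, Idi1 and Fdps stood higher in every TZG library than in every AIA library. Mvd, the decarboxylase that makes isopentenyl pyrophosphate, stood at 14.4, 12.9 and 13 CPM in TZG, against 5.94, 8.62 and 7.65 CPM in AIA (log2 fold change 0.86 ± 0.18 SE), and Idi1, which isomerises that product, at 17.9, 21.9 and 14.4 CPM in TZG, against 8.8, 10.5 and 9.86 CPM in AIA (0.89 ± 0.20 SE). Fdps, which makes farnesyl pyrophosphate, stood at 65.8, 63.5 and 64.6 CPM in TZG, against 49.3, 51.9 and 49.4 CPM in AIA (0.36 ± 0.11 SE). The lowest TZG library was G31 for Mvd and Fdps and G48 for Idi1.

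Among genes acting on squalene and on the sterols after it, Sqle, Msmo1 and Hsd17b7 followed the same order of groups. Sqle, the squalene epoxidase, stood at 17.5, 17.1 and 18.3 CPM in TZG, against 7.99, 8.14 and 9.03 CPM in AIA (1.07 ± 0.22 SE). Msmo1, a sterol methyl oxidase, stood at 30.3, 33.1 and 24 CPM in TZG, against 22.2, 20.2 and 18.8 CPM in AIA (0.52 ± 0.14 SE; 0.65 without G48). Hsd17b7, which reduces sterol ketones, stood at 9.4, 7.75 and 8.88 CPM in TZG, against 5.42, 4 and 4.27 CPM in AIA (0.93 ± 0.24 SE). Srebf2 itself stood at 109, 92.8 and 111 CPM in TZG, against 76.6, 82.8 and 76.3 CPM in AIA (0.41 ± 0.12 SE). None of these genes overlapped between TZG and AIA. Dhcr7, the last reductase of the pathway, was the list's only member separated downward, and G30 lay just below M6.

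**Figure D4:**
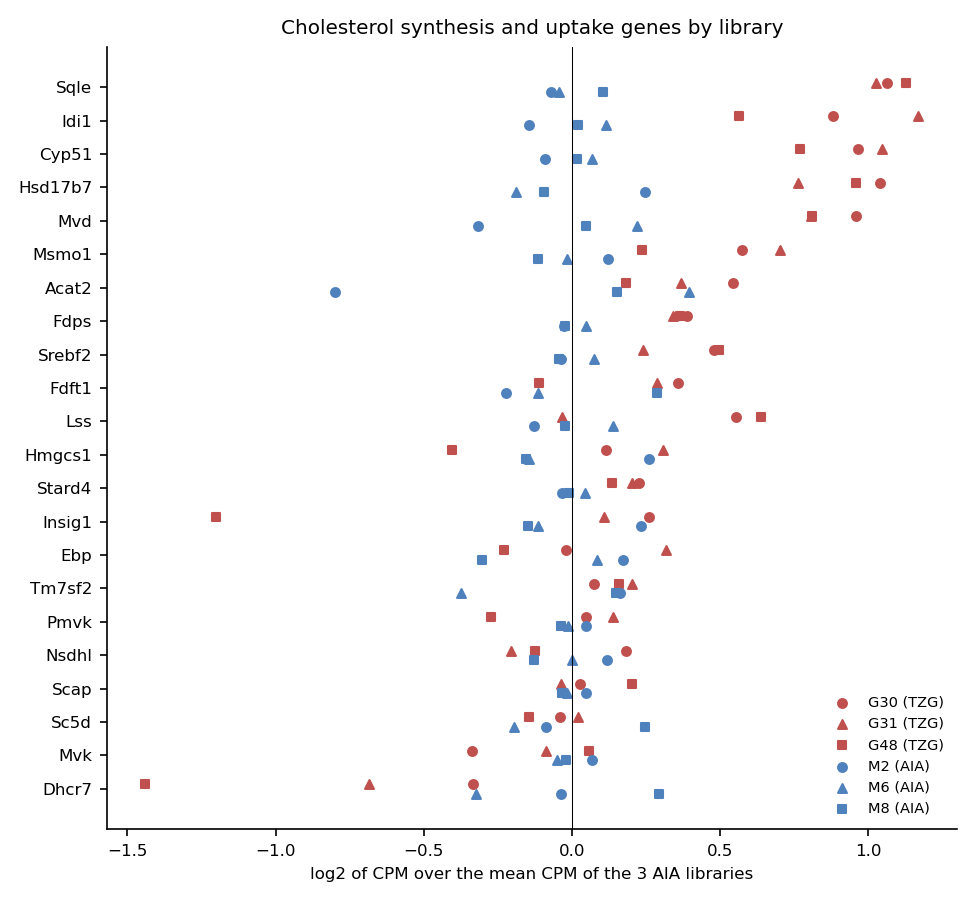
Levels of genes of the cholesterol list in the TZG and AIA libraries, as log2 of CPM over the mean CPM of the 3 AIA libraries, sorted by the log2 fold change without G48; symbols mark single libraries. Sqle, Idi1, Cyp51, Hsd17b7 and Mvd stand highest in TZG, while Insig1 and Dhcr7 are low in G48.

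Adipocyte genes had lower mean levels in TZG, with the lowest sum in G48. Of 27 tested, 0 were higher, the median log2 fold change was -1.02, and 18 were separated downward, where 12.7% of all genes were. Without G48 the median was -0.64 and 1 gene was higher. Without G48 and M8, the library with the most adipocyte reads in AIA, it was -0.46. Adipoq, the hormone adiponectin, stood at 1166, 1006 and 258 CPM in TZG, 1439, 1292 and 1881 CPM in AIA and 697, 1450.1 and 2454 CPM in NC. Plin1, which coats fat droplets, stood at 748, 667 and 162 CPM in TZG, against 1093, 1009 and 1334 CPM in AIA, and G30 and G31 also lay below all AIA libraries. Pck1, which makes the glycerol backbone of fat, stood at 432, 310.3 and 108 CPM in TZG, against 1017, 648 and 1177 CPM in AIA (-1.74 ± 0.53 SE; -1.34 without G48). Pnpla2, the lipase that opens fat breakdown, stood at 9.06, 8.1 and 2.56 CPM in TZG, against 19.6, 18.9 and 42.7 CPM in AIA (-2.04 ± 0.51 SE), the smallest p of the list. Lpl, the lipase that takes fat from blood, and Retn, the hormone resistin, had log2 fold changes of -1.16 and -1.10, and -0.80 and -0.71 without G48. Enzymes of fatty acid and triglyceride synthesis had 17 of 19 lower, with a median of -0.73, or -0.46 without G48. The elongase Elovl5 stood at 65, 56.5 and 60.7 CPM in TZG, against 75.6, 77.1 and 82.2 CPM in AIA (-0.37 ± 0.09 SE), a separation that did not rest on G48. Elovl6, another elongase, had a log2 fold change of -1.26. G48, lowest in the summed level of the adipocyte list, was the library with the most cartilage and bone reads, and with the cartilage and bone score as a covariate the adipocyte median was -0.60.

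Most fibrillar collagen genes and most genes for enzymes that process collagen had higher mean levels in TZG. Of 17 genes for collagen modification and crosslinking, 16 were higher, 7 were separated upward, where 10.7% of all genes were, and the median log2 fold change was 0.51, or 0.41 without G48. Lox, the oxidase that crosslinks collagen, stood at 467, 509.7 and 561 CPM in TZG, 109, 239 and 68.2 CPM in AIA and 91, 116 and 54.7 CPM in NC (log2 fold change 1.89 ± 0.45 SE, edgeR adjusted p = 0.26; 1.82 without G48). All TZG libraries were within 467 to 561 CPM, and M6 was the highest of AIA. P4ha1 and P4ha2, subunits of the prolyl hydroxylase, had log2 fold changes of 0.90 and 0.80, and Serpinh1, the collagen chaperone, of 0.71, all separated. Fibrillar collagens had 10 of 11 higher, 3 separated upward and a median of 0.86, or 0.48 without G48 and 0.28 without G48 and M8. They summed to 40478, 39871 and 95487 CPM in TZG, against 24586, 41349 and 20347 CPM in AIA. By this sum G48 alone lay above the AIA range. Col12a1, which sits on the surface of collagen fibrils, stood at 205, 369 and 1090.5 CPM in TZG, against 50.3, 138 and 46.6 CPM in AIA (2.83 ± 0.67 SE; 1.88 without G48). Col5a3, a chain of type V collagen, stood at 685, 629 and 335 CPM in TZG, against 373, 393 and 264 CPM in AIA, and here G48 was the only TZG library below an AIA library. Tendon genes, read against the same 10.7%, had 6 of 10 separated upward and a median of 1.65, or 0.75 without G48. Tnc, a matrix protein of tendon and injured tissue, stood at 378, 775 and 622 CPM in TZG, 193, 267 and 104 CPM in AIA and 323, 340.4 and 83.4 CPM in NC (1.65 ± 0.55 SE; 1.63 without G48), and Thbs4, a thrombospondin, at 169, 172 and 208 CPM in TZG, against 54.6, 88.7 and 32.2 CPM in AIA. Basement membrane genes had 12 of 18 lower and a median of -0.18. Lamb2, a laminin chain, and Col18a1, a collagen of the vascular basement membrane, had log2 fold changes of -0.58 and 0.60. The cartilage and bone score was highest in G48 and next highest in G30, and with it as a covariate the medians of the collagen modifying, fibrillar collagen and tendon lists were 0.39, 0.44 and 0.91. The score is itself built from cartilage and bone genes, collagens among them. These medians are therefore no independent check on collagen genes.

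The TGF-beta and protease lists depended on G48 as a whole, with members that did not. Targets of TGF-beta and fibrosis genes had a median log2 fold change of 0.50, or 0.16 without G48, and 14 of 24 kept under 0.5 of their log2 fold change or turned. Genes with small fold changes meet this limit easily, and in the interferon response list 18 of 25 did. The share of all genes was not counted, so such counts are not particular to the TGF-beta and protease lists. Postn, the matrix protein periostin, stood at 706, 738 and 2818 CPM in TZG, against 392, 567 and 318 CPM in AIA, and Ltbp2, a microfibril protein, at 38.6, 89.8 and 478 CPM in TZG, against 23.2, 52.6 and 31.2 CPM in AIA. G48 was 3.82 and 5.33 times the highest of the other 5 libraries. Wisp1, a matricellular target of Wnt signalling, stood at 11.6, 11.6 and 36.3 CPM in TZG, against 1.1, 5.23 and 2.14 CPM in AIA (2.81 ± 0.79 SE; 2.04 without G48), and Skil, a feedback repressor of SMADs, at 35.4, 37.2 and 50.9 CPM in TZG, against 27.3, 29.3 and 25.8 CPM in AIA (0.58 ± 0.16 SE). Matrix proteases and their inhibitors had a median of 0.53 with and 0.01 without G48, and 13 of 28 kept under 0.5 or turned. Mmp13, a collagenase of cartilage and bone, stood at 34, 3.46 and 676 CPM in TZG, against 5.42, 3.19 and 19.7 CPM in AIA (log2 fold change 4.65 with and 1 without G48). Mmp3, a stromelysin of synovial fibroblasts, stood at 235, 279.8 and 1049.8 CPM in TZG, 362, 407 and 63.8 CPM in AIA and 59.7, 63.5 and 5.29 CPM in NC (0.91 and -0.10). M8 was by far the lowest AIA library for Mmp3. Timp1, an inhibitor of these proteases, stood at 176, 268 and 224 CPM in TZG, against 98.7, 112 and 43.8 CPM in AIA (1.39 ± 0.37 SE; 1.40 without G48), while Timp3, another inhibitor, stood at 239, 183 and 148 CPM in TZG, 421, 254 and 307 CPM in AIA and 567, 522 and 431 CPM in NC (-0.78 ± 0.24 SE). Plau, the urokinase that activates plasminogen, stood at 131, 120.1 and 107 CPM in TZG, against 75.8, 87.4 and 78.5 CPM in AIA (0.57 ± 0.12 SE; 0.65 without G48). Mmp12, an elastase of macrophages, and Adamts1, an aggrecan-cleaving protease, were separated upward with log2 fold changes of 3.47 and 1.08, and 2.97 and 1.25 without G48.

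Several inflammatory mediators stood higher in TZG than in AIA, and these did not rest on G48. Il6, a cytokine that drives joint inflammation, stood at 8.46, 11.1 and 5.88 CPM in TZG, 0.953, 1.36 and 0 CPM in AIA and 0.825, 0.527 and 0 CPM in NC (log2 fold change 3.45 ± 0.98 SE, edgeR adjusted p = 0.3; 3.66 without G48). G48 was the lowest TZG library, and M8 was at 0. Ccl2, a chemokine that draws monocytes, stood at 38.9, 67.3 and 20.2 CPM in TZG, 14.1, 15.5 and 6.69 CPM in AIA and 4.95, 2.96 and 4.32 CPM in NC (log2 fold change 1.80 ± 0.46 SE, edgeR adjusted p = 0.27; 2.14 without G48), and Ccl7, a related chemokine, at 32.1, 53 and 66.1 CPM in TZG, against 15.4, 20.02 and 6.69 CPM in AIA (1.84 ± 0.42 SE). Lif and Osm, cytokines of the same family as Il6, had log2 fold changes of 2.66 and 1.36 and were separated, with TZG levels of 1.87, 4.01 and 5.75 and of 5.8, 2.91 and 4.92 CPM. Il1b stood at 8.93, 15.5 and 17.8 CPM in TZG, against 5.72, 10.7 and 10.9 CPM in AIA (log2 fold change 0.63 ± 0.35 SE, edgeR adjusted p = 0.48) and Tnf at 1.07, 0.623 and 1.09 CPM in TZG, against 0.953, 1.63 and 0.689 CPM in AIA (log2 fold change -0.23 ± 0.45 SE, edgeR adjusted p = 0.85), and both overlapped between the groups. Over 18 tested cytokines the median log2 fold change was 0.22, or 0.03 without G48, and over 24 chemokines 0.13 and 0.05. Among the 24 chemokines 4 were separated upward and 4 downward, where 10.7% and 12.7% of all genes were. Ccl24, an eosinophil attractant, was one of those separated downward, at 5.67, 4.22 and 1.34 CPM in TZG, 12.2, 11.3 and 10.3 CPM in AIA and 15.3, 26 and 12 CPM in NC. Ccl21, a lymphoid chemokine with near-identical copies in mice that the counting could split, stood at 48.2, 43.1 and 26.8 CPM in TZG, against 11.7, 25.5 and 8.34 CPM in AIA.

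Single genes known to be induced by these cytokines stood higher too, while the NF-kB and JAK-STAT lists had shares of higher genes near that of all genes. Socs3, the feedback inhibitor of JAK and STAT signalling, stood at 57.1, 50.4 and 50.02 CPM in TZG, 28.4, 20.8 and 8.89 CPM in AIA and 11.2, 8.62 and 15.3 CPM in NC (1.44 ± 0.37 SE; 1.48 without G48). All TZG libraries were within 50.02 to 57.1 CPM and M8 was the lowest of AIA. Nfkbiz, a nuclear cofactor of NF-kB and IL-17 responses, stood at 29.7, 38.5 and 41.1 CPM in TZG, 19.4, 16.6 and 9.99 CPM in AIA and 9.96, 10.1 and 7.85 CPM in NC (log2 fold change 1.25 ± 0.25 SE, edgeR adjusted p = 0.26). Ptgs2, the inducible cyclooxygenase, stood at 4.53, 14.9 and 5.11 CPM in TZG, 1.61, 1.09 and 2.14 CPM in AIA and 1.08, 1.78 and 0.794 CPM in NC (2.34 ± 0.54 SE; 2.60 without G48). Sod2, the mitochondrial superoxide dismutase, stood at 559.8, 427 and 337 CPM in TZG, against 253, 300.3 and 172 CPM in AIA (0.87 ± 0.24 SE). Il1rn, the antagonist of the IL-1 receptor, stood at 22.5, 29.2 and 53.3 CPM in TZG, against 7.48, 22.4 and 17.7 CPM in AIA, with G48 highest. The IL-17 response list, which shares genes with the chemokine, protease and NF-kB lists, had 16 of 17 higher and a median of 0.91. Without G48 it had 11 higher and a median of 0.61. With M8 left out its median was 1.23. The NF-kB list as a whole had 14 of 24 higher, where 50.2% of all genes were, 7 separated upward, where 10.7% of all genes were, and a median of 0.10. The JAK-STAT list had 13 of 23 higher and a median of 0.02. Lifr, the receptor of Lif, stood lower, at 110.4, 62.3 and 62.6 CPM in TZG, against 154, 142 and 191 CPM in AIA (-1.05 ± 0.23 SE). Prostaglandin and leukotriene genes had a median of 0.09, and the prostaglandin receptor Ptger4 a log2 fold change of 0.56. Inflammasome genes had a median of 0.14, with Mefv and Gsdmd at 0.99 and 0.15.

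Blood cell lists followed single libraries. Neutrophil genes had 18 of 21 higher and a median log2 fold change of 0.37, against 3 and -0.78 without G48, and 0.79 without G48 and M8. S100a8, a subunit of calprotectin, stood at 202, 93.4 and 869 CPM in TZG, 65.2, 69.97 and 713 CPM in AIA and 1.46, 0.856 and 2.29 CPM in NC. The antimicrobial Camp stood at 62.6, 23.6 and 289 CPM in TZG, against 16.5, 17.5 and 201 CPM in AIA, with the same 2 libraries, G48 and M8, highest. Cebpe, a factor of granulocyte maturation, and Trem3, a myeloid receptor, had log2 fold changes of 0.84 and -0.80. Erythroid genes had 19 of 20 lower and a median of -1.67, but 0.25 without M8. Slc4a1, which exchanges anions across the red cell membrane, stood at 39.3, 30.03 and 38.5 CPM in TZG, against 34.3, 26.1 and 343 CPM in AIA, with M8 alone above the TZG range. Ahsp, the chaperone of alpha globin, stood at 6.8, 7.75 and 7.92 CPM in TZG, against 10.6, 3.87 and 68.3 CPM in AIA, and Fech, which inserts iron into heme, at 34.7, 31.1 and 35 CPM in TZG, against 38.4, 39.5 and 102 CPM in AIA. The T and NK cell list had a median of 0.28 with and -0.11 without G48. Cd8a, the coreceptor of cytotoxic T cells, was separated at 13.1, 25.2 and 19.4 CPM in TZG, 3.66, 9.84 and 4.89 CPM in AIA and 0.444, 0.79 and 0.617 CPM in NC (1.65 ± 0.39 SE; 1.65 without G48), while Cd2, an adhesion molecule of T cells, overlapped (0.80 ± 0.37 SE). The B and plasma cell list had a median of 0.06, or -0.47 without G48. Of that list Sdc1, a syndecan of plasma cells and epithelia, had a log2 fold change of 1.18, and Ebf1, a factor of B cells that fat and stromal cells also express, of -0.70. Macrophage genes had a median of -0.02, with the Fc receptor Fcgr1a at 45.7, 63.5 and 42.2 CPM in TZG, against 27.4, 40.2 and 30.7 CPM in AIA and the clearance receptor Mertk at 33.4, 33.8 and 33.2 CPM in TZG, against 43, 35.5 and 41 CPM in AIA. Mast cell genes had a median of -0.19. Its member Il1rl1, the IL-33 receptor, which other immune cells also carry, stood at 20.3, 32.7 and 20.4 CPM in TZG, against 5.2, 12.7 and 2.55 CPM in AIA, and its member Gata2 had a log2 fold change of -0.58.

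Endothelial genes tended to be lower in TZG. Of 22 tested, 17 were lower and 10 were separated downward, where 12.7% of all genes were. The median log2 fold change was -0.33, or -0.20 without G48. With any 1 library left out it lay between -0.46 and -0.20, the value nearest to 0 being that without M2 or without G48. With the cartilage and bone score as a covariate it was -0.15, and the part of the amount of fat was not tested. Without G48, 11 were separated downward, where 19.9% of all genes were lower and 17.1% higher in both G30 and G31 than in every AIA library. Cdh5, the cadherin of endothelial junctions, stood at 317, 333 and 334 CPM in TZG, 500.2, 475 and 495 CPM in AIA and 571, 424 and 681 CPM in NC (-0.58 ± 0.17 SE). Its 3 TZG libraries lay within 317 to 334 CPM. Emcn, a sialomucin of capillaries and veins, stood at 68.6, 65.7 and 63.1 CPM in TZG, 114, 98.4 and 114 CPM in AIA and 146, 115 and 177 CPM in NC (log2 fold change -0.73 ± 0.16 SE, edgeR adjusted p = 0.26), with all TZG libraries below all AIA and NC libraries. Kdr, the main receptor for vascular growth factor, and Robo4, a guidance receptor of vessels, had log2 fold changes of -0.55 and -0.73 and were also separated. Genes of pericytes and smooth muscle had 13 of 18 lower and a median of -0.38, or -0.16 without G48. Synpo2, an actin-binding protein of smooth muscle, stood at 58.6, 61.4 and 30.9 CPM in TZG, against 111, 72 and 113 CPM in AIA, and Myh11, the smooth muscle myosin, at 522, 591 and 254 CPM in TZG, against 935, 588 and 810.5 CPM in AIA. Schwann cell and nerve genes had a median of -0.20, with the myelin protein Prx at 26.1, 24 and 20.6 CPM in TZG, against 33, 27.2 and 37 CPM in AIA and S100b, which fat cells also express, at 167, 134 and 81.8 CPM in TZG, against 315, 182 and 322 CPM in AIA. Cxcl12, a chemokine of stromal and endothelial cells, stood at 431, 448 and 323 CPM in TZG, against 588, 566 and 667 CPM in AIA (-0.60 ± 0.27 SE).

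Cell cycle genes stood higher in TZG without a clean separation. All 28 of 28 tested genes had a positive log2 fold change, where 50.2% of all genes did, with a median of 0.64, or 0.65 without G48. Only 1 was separated upward, where 10.7% of all genes were. Pcna, the sliding clamp of DNA replication, stood at 80.9, 124 and 65.7 CPM in TZG, 55, 63.3 and 65.8 CPM in AIA and 53.7, 53.3 and 44.5 CPM in NC (0.56 ± 0.22 SE). Top2a, a topoisomerase of dividing cells, stood at 52.8, 82.1 and 84.7 CPM in TZG, 16.3, 46.8 and 66.4 CPM in AIA and 8.5, 6.98 and 4.76 CPM in NC, Mcm5, a subunit of the replicative helicase, at 27.7, 80.7 and 30.9 CPM in TZG, against 11.8, 30 and 35.1 CPM in AIA, and the mitotic kinesin Kif20a at 18.9, 31.6 and 24 CPM in TZG, against 9.02, 18.3 and 20.3 CPM in AIA. The mitotic kinase Cdk1 had a log2 fold change of 0.66. For these 5 genes M2 was the lowest of the 6 libraries. The median was 0.32 without M2 and 0.98 without M8, the lowest and the highest with 1 library left out. Genes of the unfolded protein response had 17 of 21 higher and a median of 0.29. The list's median was higher without G48, and 5 genes were separated upward with all libraries and 14 without G48, where all genes had 10.7% and 17.1%. The median was 0.40 without G48, and without G31 it was 0.19. Creld2 and Manf, proteins of the endoplasmic reticulum induced by stress, stood at 52.5, 54.2 and 32.6 CPM in TZG, against 34.1, 32.6 and 28.2 CPM in AIA, and at 98.3, 107 and 80.7 CPM in TZG, against 81.2, 71.3 and 60.2 CPM in AIA. Hspa5, the main chaperone of that compartment, stood at 865, 757 and 530.1 CPM in TZG, against 612, 566 and 405 CPM in AIA. Immediate early genes had 20 of 26 higher, where 50.2% of all genes were, and a median of 0.32. Only 1 was separated upward, where 10.7% of all genes were: Nr4a2, an orphan nuclear receptor, at 11.3, 31.7 and 25.6 CPM in TZG, 9.68, 7.6 and 5.86 CPM in AIA and 13.8, 18.9 and 12.5 CPM in NC (1.57 ± 0.37 SE). The median was 0.19 without G31 and 0.53 without M2. Junb, a subunit of AP-1, had a log2 fold change of 0.54.

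Targets of glucocorticoids did not move one way. Of 21 tested, 10 were higher and 11 lower, with a median of -0.02. The metallothionein Mt1, which metals and cytokines also induce, stood at 86.1, 52 and 60.4 CPM in TZG, 34.7, 37 and 21.7 CPM in AIA and 5.77, 7.24 and 8.12 CPM in NC (1.09 ± 0.25 SE), opposite in direction to Zbtb16 of the same list. Mt2A, another metallothionein, stood at 223, 169 and 98.9 CPM in TZG, 130.4, 82.3 and 39.4 CPM in AIA and 10.7, 15 and 6.17 CPM in NC and overlapped. Core clock genes had a median of 0.14. Nr1d1, the clock repressor REV-ERB alpha, stood at 37.5, 39 and 32.1 CPM in TZG, 61.5, 47.8 and 50.8 CPM in AIA and 146, 198 and 174 CPM in NC (-0.56 ± 0.15 SE), while Clock, an activator of the loop, stood at 54.7, 57.6 and 54.1 CPM in TZG, against 42.5, 47.1 and 33.8 CPM in AIA (0.43 ± 0.14 SE) and Cry1, a repressor of the loop, at 19.7, 22.1 and 18.4 CPM in TZG, against 15, 15.3 and 14.3 CPM in AIA (0.43 ± 0.13 SE). All 3 were separated between TZG and AIA. The time of day at which tissue was taken is not given in the labels, and its part in these values was not tested. Bhlhe40, a repressor linked to clock and hypoxia, had a log2 fold change of 0.89.

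The remaining lists are given by their medians. Hypoxia and glycolysis genes had a median of 0.24, or 0.23 without G48, with 8 of 23 separated upward, where 10.7% of all genes were, and Higd1a, a mitochondrial hypoxia gene, at a log2 fold change of 0.56. Interferon response genes had a median of -0.17, or 0.06 without G48, and antigen presentation genes -0.06 and -0.04. Of these lists Ifi44 and Xaf1 had log2 fold changes of -0.38 and -0.45, and the costimulator Cd80 and the class I light chain B2m 0.78 and -0.41. Complement genes had a median of -0.03, with C4a and Cfi at -0.65 and 2. C4a has a near-identical copy, so its count is uncertain. Wnt genes had a median of 0.32 with and -0.08 without G48, the coreceptor Lrp5 being separated downward (-0.39) and the feedback gene Axin2 upward (0.79). BMP and activin genes had a median of 0.03, with Fst, the activin antagonist follistatin, at 21, 10.7 and 3.19 CPM in TZG, against 46.8, 32.8 and 31.7 CPM in AIA and Gdf6 at a log2 fold change of 3.12. PI3K and AKT genes had a median of -0.08, with Akt2 and Pik3ca at -0.44 and 0.22. Respiratory chain genes had a median of -0.15, with Sdha, a subunit of succinate dehydrogenase, at -0.40. NRF2 response genes had a median of 0.01, with catalase Cat at -0.73 and the reductase Txnrd1 at 0.36. Skeletal muscle genes had a median of 0.22, and Acta1 and Ckm did not exceed 11.6 and 7.13 CPM in any TZG or AIA library. Keratinocyte genes had 5 members tested and a median of 0.07, with Pkp1 and Dsp at 2.50 and -0.22.

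**Figure D5:**
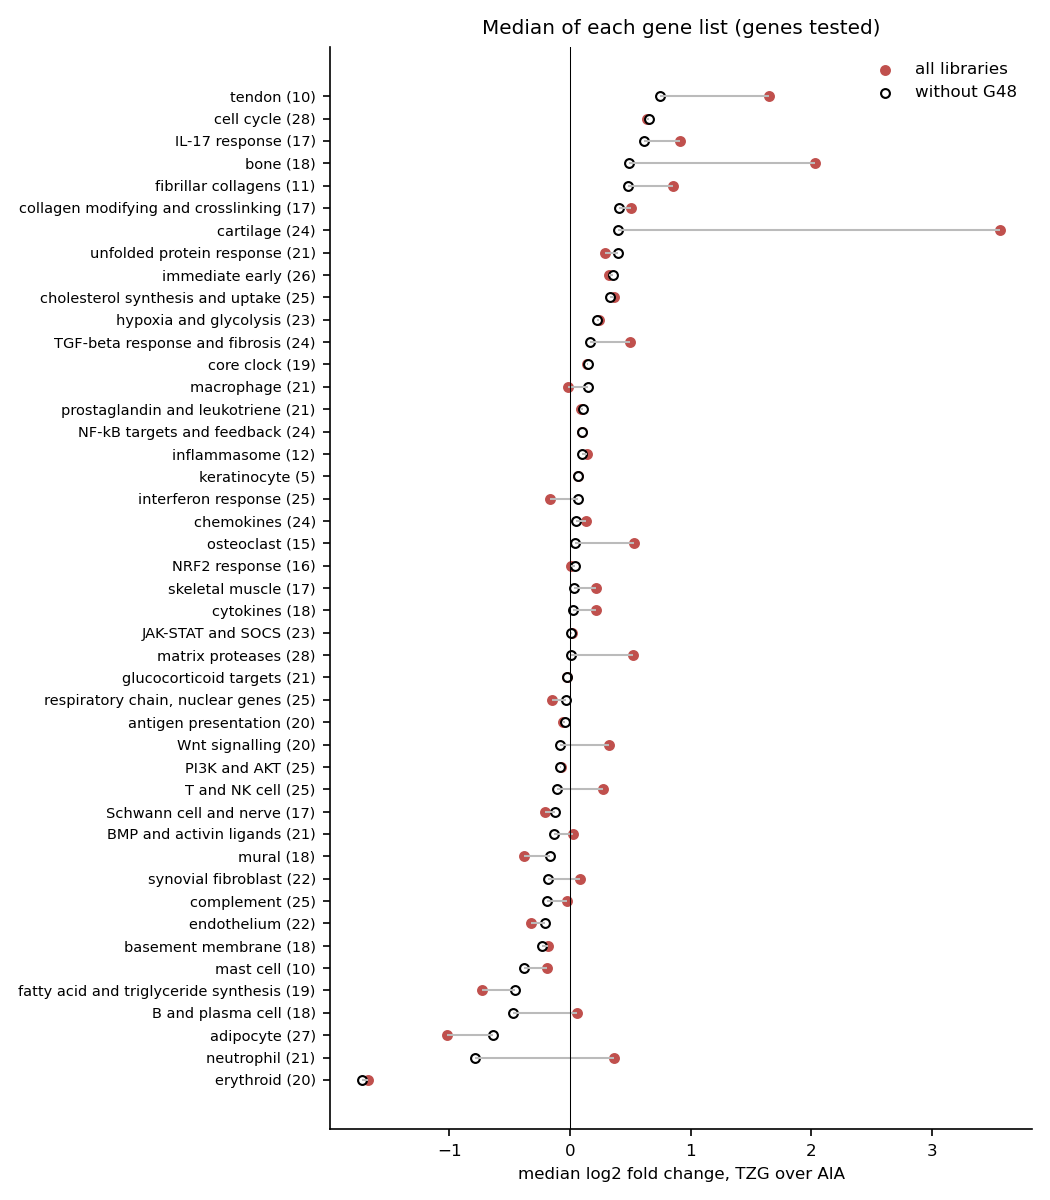
Median log2 fold change of TZG over AIA for each of the 45 gene lists, with the number of genes tested in brackets, from all libraries (filled) and without G48 (open); lists are sorted by the value without G48. The line between the points is longest for cartilage, at 3.56 and 0.40, while the cell cycle and cholesterol lists barely move, at 0.64 and 0.65 and at 0.36 and 0.33.

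In the authors' deposited table the smallest q-values among higher genes belonged to Anxa8, Acan, Has2, Adam12 and Slc37a2, the last 2 tied in q with Col12a1. Anxa8, an annexin of membranes, stood at 20.1, 12.5 and 55.6 CPM in TZG, against 3.44, 3.33 and 1.72 CPM in AIA in the counts, with a log2 fold change of 3.37 in the authors' deposited table and of 3.37 ± 1.06 SE in edgeR (adjusted p = 0.31; 2.53 without G48). Has2, the synthase of hyaluronan, stood at 30.7, 140.1 and 73.8 CPM in TZG, 15.3, 20.8 and 7.93 CPM in AIA and 21.4, 10.7 and 3.62 CPM in NC, with G31 highest (log2 fold change 2.47 ± 0.71 SE, edgeR adjusted p = 0.3; 2.55 without G48). Adam12, a metalloprotease of activated fibroblasts, stood at 37.5, 67.1 and 57 CPM in TZG, 7.04, 23.6 and 10.9 CPM in AIA and 4.12, 5.46 and 3 CPM in NC (1.96 ± 0.44 SE; 1.93 without G48). Slc37a2, a sugar phosphate exchanger of myeloid cells and osteoclasts, stood at 38.7, 44.5 and 107 CPM in TZG, against 24, 15.4 and 13.2 CPM in AIA, with G48 highest. Among lower genes the authors' deposited table ranks Zbtb16, Hpd, Syt15, Slc36a2 and Papln at the top. Hpd, an enzyme of tyrosine breakdown, stood at 4.6, 2.91 and 2.68 CPM in TZG, 14, 10.8 and 19.1 CPM in AIA and 3.49, 8.23 and 14.5 CPM in NC (-2.10 ± 0.49 SE). Syt15, a synaptotagmin, stood at 17.1, 15.3 and 11.9 CPM in TZG, against 31.9, 38.7 and 38.4 CPM in AIA (-1.30 ± 0.26 SE), and Papln, a matrix protein related to ADAMTS proteases, at 24.1, 18.5 and 8.5 CPM in TZG, against 50.9, 41.9 and 57.9 CPM in AIA (-1.56 ± 0.36 SE). Slc36a2, an amino acid transporter found in brown fat, stood at 21.6, 23.9 and 12.5 CPM in TZG, against 45.7, 40.2 and 71.9 CPM in AIA (-1.44 ± 0.39 SE). All 10 genes were separated between TZG and AIA, and 0 passed in edgeR. They were ranked by q on these same counts, so their separation follows largely from that choice. Of all genes tested, 10.7% were separated upward and 12.7% downward.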

How the data were processed

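Raw counts of reads per gene, as whole numbers in 9 columns, are what the authors deposited, per the file headers. The labels' protocols name RNeasy extraction and a SMARTER mRNA-Seq library kit. The submitters' processing notes name fastp, HISAT2, StringTie 1.3.3b and edgeR 3.30.3 without their roles, and the genome build is not given in the sources used here. The same file holds the authors' FPKM values, their mean FPKM per group, and, for each comparison, the authors' log2 fold changes with their p-values and q-values, read only as theirs. Averaging the 3 libraries of a letter gave their group means to within a relative difference of 7.32e-04 for AIA and 5.52e-04 for TZG, so the authors grouped the columns by the same letters. Both deposited tables are identical, and 1 was used. The 4 FPKM columns whose library was placed by letter were left out.

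Counts of the 32883 genes were tested with edgeR 4.0.16 (R 4.3.3), by its robust quasi-likelihood fit with TMM factors on the 15068 genes kept by filterByExpr. All 9 libraries entered with 1 mean per group, and the contrast was TZG minus AIA. A call needs a Benjamini-Hochberg adjusted p under 0.05 over all genes tested. Standard errors are the absolute log2 fold change over the root of the F statistic. The same fit was run without each library in turn, without G48 and M8, and with the cartilage and bone score as a covariate. The tests were also run with DESeq2 1.42.0 and limma-voom (limma 3.58.1). With 3 libraries against 3, a permutation test of 1 gene cannot go below p = 0.1, so none was used. The closest 2 libraries, G30 of TZG and M6 of AIA, still had a chi-square of 21.0 per gene, far over sampling noise, and each library counts as 1 replicate. Within TZG the value was 23.3 for G30 and G31 and 118 for G30 and G48. Values over sampling noise do not show that libraries come from separate rats.

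Genes in 45 lists (997 entries, 966 matched) are described by counts and medians, with no test. The lists, the groups compared and the rule for named genes were chosen with earlier results of these data known. That rule selected, per direction, 8 genes by p with all libraries and 5 without G48, the 5 highest ratios of G48 to the other libraries, 8 genes of joint inflammation, the 2 smallest p of each list and the 5 smallest q of the authors in each direction. Means of at least 5 CPM were required where genes were ranked by p over all genes, by ratio or by q. It gave 121 genes, of which 2 are not reported here. A further 49 examples were chosen after their values were seen, and so was DESeq2 or limma-voom without G48. Promoters came from RefSeq's tables for GRCr8. Separated means that every library of one group lies above every library of the other.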

Additional observations from a re-analysis of the deposited data

How the results depend on the processing

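The edgeR counts of 0 higher and 0 lower genes held under every scaling, filter, leave-one-out and covariate fit and in limma-voom. DESeq2 gave 149 higher and 151 lower genes with all libraries, and 197 higher and 105 lower without G48, and the cause was not tested. With the cartilage and bone score as a covariate, the sign turned for Panx3, Col9a1, Grem1, Sp7, Cnmd, Mmp3, Mmp13, Cebpe, S100a8, Camp, Htra1, Cd55 and Ctsk, with log2 fold changes of -1.27, -1.30, -1.55, -0.20, -1.62, -0.12, -0.12, -0.32, -1.03, -1.07, -0.11, -0.17 and -0.45 in that order. The score averages cartilage and bone genes and was highest in G48, so for genes of those lists a turn is partly built in. Panx3, Col9a1, Grem1, Sp7 and Cnmd were moreover chosen for their high ratio in G48. Without G48 and M8, the sign turned for Grem1, Cnmd, Mmp3, Ahsp, Slc4a1, Htra1, Cd55 and Pdgfra, with log2 fold changes of -0.41, -1.35, -0.57, 0.023, 0.21, -0.30, -0.12 and -0.16 in that order. With only the columns matched by number, which leaves G30 alone in TZG and M6 alone in AIA and assumes that they vary like NC, the sign turned for Il1b, Mmp3, Prg4, Acta1, Dsp, Ahsp, Cd2, Col18a1, Gsdmd, Xaf1, Cfi, Slc4a1, Mcm5, Cdk1, Htra1, Thy1, Pdgfra, Pi16 and Ltbp2, with log2 fold changes of -0.26, -0.79, 0.35, -0.89, 0.23, 0.81, -0.043, -0.16, -0.019, 0.043, -0.17, 0.59, -0.12, -0.16, -0.20, -0.062, -0.18, 0.20 and -0.45 in that order. With 1 library left out, the sign also turned for the following genes, whose log2 fold changes ran from -0.49 to 4.89 for Grem1, from -1.43 to 4.83 for Cnmd, from -0.48 to 0.17 for Tnf, from -0.10 to 1.29 for Mmp3, from -2.39 to 0.056 for Ahsp, from -0.0086 to 1.88 for Cebpe, from -0.92 to 2.52 for S100a8, from -2.39 to 0.25 for Slc4a1, from -0.84 to 2.88 for Camp, from -0.061 to 0.58 for Htra1 and from -0.040 to 0.61 for Cd55. Scaling by library totals or RLE factors turned the sign of 0 of 168 genes, and so did DESeq2 and limma-voom. Over the 45 lists, the median changed sign in 8 without G48, 8 without G31, 6 without M2, 6 without M6, 5 without M8 and 1 without G30, in 11 with only the columns matched by number, in 15 with the covariate and in 12 without G48 and M8, and in 0 with RLE factors or library totals. No paired analysis was possible because the columns carry no numbers shared between the groups. Depth limits low genes such as Tnf, which stayed under 2 CPM in every TZG and AIA library.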

Other observations

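Most genes of ribosome assembly and of nucleotide, one-carbon and polyamine synthesis had higher mean levels in TZG, with higher list medians without G48 than with it. These 2 lists were put together after the values of Srm, Pak1ip1 and Shmt2 had been seen, so they describe these libraries and support nothing. Of 34 ribosome biogenesis genes 32 were higher with all libraries and 33 without G48, with median log2 fold changes of 0.34 and 0.49. Every TZG library lay above every AIA library for 5 of them, and both G30 and G31 did for 27, where the shares of all genes were 10.7% and 17.1%. Of all genes 50.2% were higher with all libraries and 46.8% without G48. Npm1, a chaperone of the nucleolus, stood at 279.5, 323 and 269 CPM in TZG, 201, 209 and 206 CPM in AIA and 162, 171 and 166 CPM in NC (log2 fold change 0.50 ± 0.11 SE, edgeR adjusted p = 0.26), and all TZG libraries lay above all AIA and NC libraries. Nop58, a core protein of small nucleolar particles, stood at 64.6, 76.7 and 51.5 CPM in TZG, against 50.4, 44.5 and 38.5 CPM in AIA. Of 27 nucleotide, one-carbon and polyamine genes 19 were higher with all libraries and 25 without G48, with medians of 0.16 and 0.33. The 8 lower genes included Phgdh, at 87.8, 85.7 and 24.7 CPM in TZG, against 99, 135 and 171 CPM in AIA (-1.03), and Psat1 (-0.86). In G48 this list summed to 1156 CPM, below the 1270, 1269 and 1361 CPM in AIA. The ribosome list summed to 1520 CPM in G48, against 1617, 1534 and 1352 CPM in AIA. Odc1, the enzyme that opens polyamine synthesis, stood at 103, 132 and 93 CPM in TZG, 76.4, 62.1 and 74.4 CPM in AIA and 62, 65.7 and 65.1 CPM in NC, and Atic, which closes purine synthesis, at 109, 118 and 93.3 CPM in TZG, 73, 75.7 and 69.8 CPM in AIA and 68.6, 73.3 and 54.4 CPM in NC. In edgeR 0 of these genes passed.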
